A study of Mus musculus with 25 samples.

Results

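The genes described here are the heat shock proteins and their co-chaperones, 82 protein-coding genes taken from the 36528 gene IDs in the files by symbol alone. The rule took symbols that start with Hspa, Hspb plus a digit, Hsp90, Dnaja, Dnajb or Dnajc, and it added Hspd1, Hspe1, Hsph1, Bag1 to Bag6, Cryab, Stip1, Hsf1 and Hsf2. No expression value enters that rule. By role the set held 45 J proteins, 11 Hsp70 proteins, 9 small heat shock proteins, 9 nucleotide exchange factors, 4 genes of the Hsp90 system (Stip1 included), 2 mitochondrial chaperonin subunits and 2 heat shock factors. Hspb11, taken by its symbol, encodes a protein of intraflagellar transport and is a heat shock protein in name.

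RNA was sequenced from NeuN+ neurons and Gfap+ astrocytes sorted from mice that carried hMAPT-P301S, a human tau transgene with a mutation known from inherited tauopathy, or from littermates without the transgene (non-Tg). All mice were 6 months old, and there were 8 non-Tg neuron, 6 P301S neuron, 6 non-Tg astrocyte and 5 P301S astrocyte libraries. The promoter of the transgene, the mouse strain and sex were not found in the labels, and transgene expression was not checked. It is not stated whether a library came from 1 animal or from several, nor which neuron and astrocyte libraries came from the same animal, so p-values measure only the spread between these libraries, which may be technical.

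Heat shock proteins bind unfolded or misfolded proteins and help them fold, stay soluble or be degraded. Hsp70 proteins work in cycles of ATP hydrolysis: J proteins deliver clients and trigger hydrolysis, nucleotide exchange factors such as the Bag and Hsp110 proteins reset the cycle, and Stip1 hands clients on to Hsp90. Small heat shock proteins hold clients without ATP, and Hsf1 is the transcription factor that induces many of these genes when unfolded proteins build up. Tau is a known client of the Hsp70 and Hsp90 systems.

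Hsf1 binds heat shock elements, arrays of the unit nGAAn in alternating orientation, so the promoters of the members were searched for the element as sequence context for the levels that follow. The windows ran from 250 bases before to 50 bases after each start site in RefSeq, build GRCm38.p6. The pattern of 3 units, GAANNTTC followed by NNGAA or its reverse complement, TTCNNGAA followed by NNTTC, was found in 4 of the 65 members that had a promoter entry (6.15%), against 179 of 27025 genes in the whole table (0.662%). The stretch shared by the chaperonin pair Hspe1 and Hspd1, which are transcribed away from each other, lies at chr1:55088053-55088082 and is given on the strand of each gene. The stretches of Dnajb6 (chr5:29735844-29735873, plus strand) and Hsph1 (chr5:149636279-149636308, minus strand) follow. Capitals mark the matched bases.
Hspe1: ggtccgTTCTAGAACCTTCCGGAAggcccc
Hspd1: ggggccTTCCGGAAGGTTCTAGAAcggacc
Dnajb6: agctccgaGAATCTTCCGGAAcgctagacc
Hsph1: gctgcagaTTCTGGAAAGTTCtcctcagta

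The first matched base lay 89 bases before the start site of Hspe1, 144 before that of Hspd1, 46 before that of Dnajb6 and 15 after that of Hsph1. From another start site in the table it lay 127 bases before for Dnajb6 and 36 after for Hsph1, and Hspd1 has a further start site whose window held no match. A shorter pattern of 2 units, GAANNTTC or TTCNNGAA, which overlaps the longer one, was searched after the first results were seen. It was found in 17 of the 65 members (26.2%) and in 4587 of 27025 genes (17%). The stretches shown were picked with the results known. Among the 17 were Hspb8 (chr5:116422844-116422873, minus strand), Bag3 (chr7:128523603-128523632, plus strand) and Hspb6 (chr7:30553170-30553199, plus strand), which differed between the cell types below. Dnajc27, whose stretch is not shown, also held a match and differed between them. The first matched base lay 2 bases after the start site of Hspb8, 42 after that of Bag3 and 120 before that of Hspb6. Dnaja1, Dnajb6, Hsph1 and Hspd1 held a match and were not called between non-Tg cell types, and Hspa12a, Dnajc6, Dnajb2 and Hspa2, which were called, held none. The heat-inducible Hsp70 gene Hspa1a (chr17:34972242-34972271, minus strand) and the small heat shock gene Hspb1 (chr5:135887811-135887840, plus strand) also held it, and both had almost no reads.
Hspb8: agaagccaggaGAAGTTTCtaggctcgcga
Bag3: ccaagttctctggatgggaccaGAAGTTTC
Hspb6: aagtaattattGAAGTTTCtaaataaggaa
Hspa1a: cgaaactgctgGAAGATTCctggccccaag
Hspb1: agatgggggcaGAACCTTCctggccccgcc

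Hspb1 holds a further match at chr5:135887791-135887820, not shown. The near-identical gene Hspa1b holds the same 30 bases as Hspa1a at chr17:34959324-34959353 on the minus strand. A match is a description of letters in the window. Hsf1, Hspa8, Hsp90aa1, Hsp90ab1 and Cryab were among the 17 members with no promoter entry in the table.

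Library totals ran from 1245964 to 4453555 counts, and the 82 members together took 0.185% to 0.362% of them. The single non-coding RNA Malat1 took 20.1% to 39.3% of the counts of a library. Its group means were 23.1% in non-Tg and 23.6% in P301S neurons, and 32.9% in non-Tg and 30.4% in P301S astrocytes. What this large share means for the member levels was not tested. Levels are CPM, that is counts per 1000000 counts of a library after TMM scaling over all 25 libraries. Summed levels of marker lists are CPM without TMM scaling. Also without that scaling, 3 counts, used here as a detection floor, stood for 0.674 to 2.41 CPM. The labelled cell types were checked by markers in the non-Tg libraries: 12 of 12 astrocyte markers were lower in neurons, and 10 of 12 neuron markers were higher. All 7 oligodendrocyte markers tested were also lower in neurons. The summed level was 72.3 ± 15.2 CPM (SD, n = 8) in non-Tg neurons and 347 ± 115 CPM (n = 6) in non-Tg astrocytes. All 4 oligodendrocyte precursor markers tested were lower too, with sums of 2.06 ± 1.05 and 93.9 ± 27.6 CPM. Of 5 mural and fibroblast markers tested, 3 were lower in neurons and 1 was higher, with sums of 22 ± 6.49 and 140 ± 37.3 CPM. The part of these other cells in the member levels was not tested. The labels' protocol gives typical yields of 200 to 300 ng RNA from neurons and 2 to 5 ng from astrocytes. At a common depth, the number of genes detected was lower in P301S than in non-Tg astrocyte libraries (2-sided exact permutation p = 0.0130, or 0.161 when adjusted over 22 library measures).

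Of the 82 members, 61 had enough reads to be tested in at least 1 comparison, and 21 in none. The 21 held 0 to 163 counts each over all 25 libraries: Bag2, Dnajb3, Dnajb7, Dnajb8, Dnajb13, Dnajc5b, Dnajc5g, Dnajc12, Dnajc17, Dnajc22, Dnajc30, Hspa1a, Hspa1b, Hspa1l, Hspa12b, Hspb1, Hspb2, Hspb3, Hspb7, Hspb9 and Hspe1. Hspa1a, Hspa1b and Hspb1, which are strongly heat-inducible, were in this group, whereas the inducible Dnajb1, Hsp90aa1, Hsph1 and Bag3 were tested. Hspa1a had 23 counts in 11 libraries, Hspa1b had 7 counts in 4 libraries, and Hspb1 had 8 counts, all in P301S astrocyte libraries 1 and 2. Because only reads with a unique alignment were counted, genes with near-identical copies lose reads: 66.3% of the 50-base stretches of the longest coding transcript of Hspa1a, 62.3% of those of Hspa1b and 51.7% of those of Hspb1 also occur in transcripts of other genes. The same share was 74.8% for Hspa8, 58.5% for Hsp90aa1, 44.8% for Hspd1, 44.8% for Hspe1, 42.8% for Dnajb6 and 28.8% for Dnaja1, so the levels of these genes are uncertain and may be too low. It was above 20% for 16 members in all and 0 for 41. The share also takes in stretches shared with genes that overlap at the same place, which need not be copies. That of Dnaja4 (51.9%) was with Wdr61 alone and that of Hspb2 (28%) with Cryab alone, both overlapping on the opposite strand. Part of the share of Dnaja1 was with the overlapping Smu1, and part of that of Hspe1 with the overlapping Hspd1.

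Levels can be set side by side between genes only per length, by the authors' size-factor-adjusted RPKM. On that scale the same 3 genes led in all 4 groups. Hsp90b1, the Hsp90 of the endoplasmic reticulum (ER), stood at 19.3 ± 5.35 RPKM (SD, n = 8) in non-Tg and 20.6 ± 7.79 (n = 6) in P301S neurons, and at 21.2 ± 7.52 (n = 6) in non-Tg and 20.9 ± 8.41 (n = 5) in P301S astrocytes. Hsp90ab1, the constitutive cytosolic Hsp90, stood at 14.9 ± 3.59, 21 ± 5.29, 12.7 ± 4.83 and 13.9 ± 4.13 RPKM in the same order. Dnajc21, a J protein of ribosome maturation, stood at 17.9 ± 7.21, 22.5 ± 6.34, 7.3 ± 2.44 and 12.6 ± 8.49 RPKM. In both neuron groups the mean ± SD ranges of these 3 genes overlapped. The fourth place changed with the group: Hspa4 in non-Tg neurons (5.55 RPKM), Hsph1 in P301S neurons (5.99 RPKM), Hspa5 in non-Tg astrocytes (5.53 RPKM) and Hsf1 in P301S astrocytes (9.32 ± 6.79 RPKM). Hspa8, the constitutive Hsp70, stood at 0.937 to 1.59 RPKM in the group means, with the loss of shared reads given above. Other reasons for its low level were not tested.

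The first comparison asked how the chaperone set differs between neurons and astrocytes of non-Tg mice. A small set separated the cell types by large amounts. Hspb8 and its binding partner Bag3, which together deliver misfolded proteins to autophagy, were read in astrocytes and were near the detection floor in neurons, and Dnajb2 and Hspa2 were also lower in neurons. Hspa12a, a divergent Hsp70 protein, and Dnajc6, the neuronal auxilin that uncoats clathrin vesicles, were higher in neurons. Of the 60 members tested, 7 were higher and 9 lower in neurons at an adjusted p under 0.05 (edgeR's quasi-likelihood test, Benjamini-Hochberg over 14197 genes), which is 26.7% of the members. Of all genes 46.9% were called, 21.8% higher and 25.1% lower. Members and all genes had a median absolute log2 difference of 0.50 and 0.96. In these bulk libraries fewer cells with a transcript and less RNA per cell cannot be told apart.

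**Figure D1:**
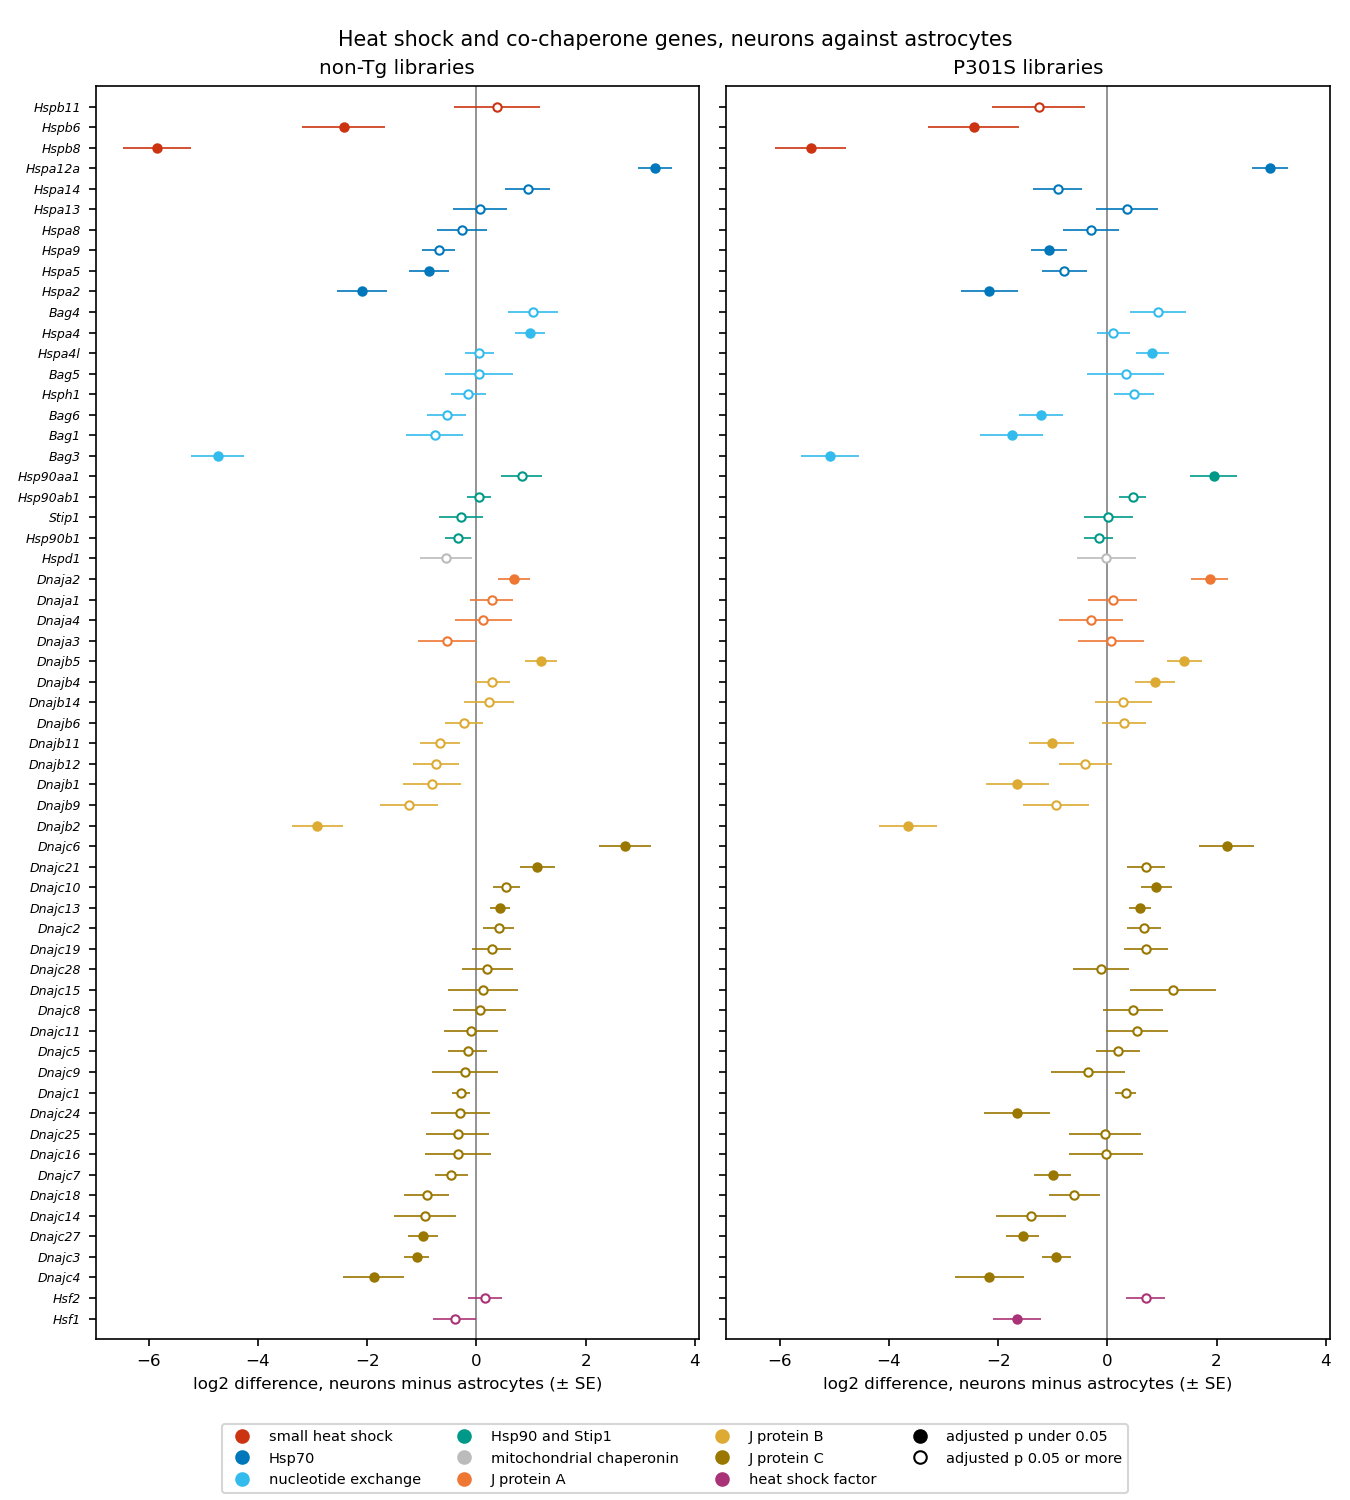
Log2 difference, neurons minus astrocytes, of each tested member in non-Tg (left) and P301S (right) libraries; bars are ± SE, colours give the role, and filled points had an adjusted p under 0.05. Hspb8 and Bag3 lie farthest to the left and Hspa12a farthest to the right in both panels, and most members lie within 2 of 0.

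Among the small heat shock proteins, Hspb8 (RefSeq GRCm38.p6 chr5:116408491-116422864) ran from 16 to 39.6 CPM with a median of 27.7 in the 6 non-Tg astrocyte libraries. In the 8 non-Tg neuron libraries it ran from 0 to 2.16 CPM with a median of 0.113, which is 0 to 4 counts per library. The groups did not overlap. The log2 difference, neurons minus astrocytes, was -5.85 (SE 0.63, edgeR adjusted p = 1.71e-09), a size that rests on few neuron counts. Hspb6, which binds actin-associated proteins in muscle, stood at 0.853 CPM in non-Tg neurons and 5.35 ± 4.08 CPM in non-Tg astrocytes, with overlap between the groups (log2 -2.43, SE 0.76, edgeR adjusted p = 0.00873). Cryab, alpha B crystallin, had too few reads to pass the filter of the main fit: its highest level in a non-Tg neuron library was 0.54 CPM. The non-Tg astrocyte libraries ran from 0.978 to 22.6 CPM, the lowest of them near the detection floor. Without a filter, with the filter at 1 CPM and by DESeq2, Cryab was called lower in neurons, in non-Tg and in P301S libraries. Cryab and Hspb2 lie on opposite strands and overlap, and Hspb2 was at 0 counts in all 25 libraries.

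Among the nucleotide exchange factors, Bag3 (chr7:128523583-128546981) ran from 12.2 to 39.3 CPM with a median of 25.8 in non-Tg astrocytes. It ran from 0 to 2.23 CPM with a median of 0.757 in non-Tg neurons, and no neuron library reached an astrocyte library (log2 -4.74, SE 0.49, edgeR adjusted p = 7.66e-10). Hspb8 and Bag3 thus shared the same side and a similar size. Hspa4, an Hsp110 protein, went the other way: it ran from 97.1 to 235 CPM (median 123) in non-Tg neurons and from 47.7 to 111 CPM (median 67.2) in non-Tg astrocytes (log2 0.98, SE 0.27, edgeR adjusted p = 0.00341). The highest astrocyte library lay above the lowest neuron library. The other 6 tested exchange factors did not pass the threshold in this fit. Bag4 was called higher in neurons under some alternatives, among them DESeq2, RLE size factors and the filter at 1 CPM.

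Of the 7 Hsp70 proteins tested, 1 was higher and 2 were lower in neurons. Hspa12a (chr19:58795750-58943672) ran from 140 to 229 CPM (median 170) in non-Tg neurons and from 9.61 to 25.1 CPM (median 18.3) in non-Tg astrocytes, with no overlap (log2 3.27, SE 0.30, edgeR adjusted p = 8.12e-11). It overlaps Eno4 on the opposite strand, which stood at a group mean of 3.6 to 7 CPM. Hspa2, best known from spermatogenesis, ran from 4.27 to 15.7 CPM (median 5.23) in non-Tg neurons and from 19.7 to 32.6 CPM (median 28.2) in non-Tg astrocytes. These groups did not overlap either (log2 -2.10, SE 0.45, edgeR adjusted p = 0.000236). Hspa5, the ER chaperone BiP, was at 50.2 ± 17.2 CPM in non-Tg neurons and 87.3 ± 26.7 CPM in non-Tg astrocytes. Its call was marginal (log2 -0.87, SE 0.36, edgeR adjusted p = 0.0487) and was lost in 16 of 20 alternative analyses, with adjusted p up to 0.176.

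J proteins, the largest role group, split evenly: of 35 tested, 5 were higher and 4 lower in neurons. Dnajc6 (chr4:101496648-101642799) ran from 41.6 to 67.4 CPM (median 55.2) in non-Tg neurons and from 1.98 to 13.9 CPM (median 7.98) in non-Tg astrocytes, with no overlap (log2 2.73, SE 0.47, edgeR adjusted p = 1.23e-05). Dnajb5 (chr4:42949867-42959425) ran from 27.5 to 86.2 CPM (median 64.2) in non-Tg neurons and from 13.5 to 45.3 CPM (median 24.2) in non-Tg astrocytes, so that the groups overlapped (log2 1.18, SE 0.29, edgeR adjusted p = 0.000923). Dnajc21 was higher in neurons as well (207 ± 87.7 against 91.2 ± 31.3 CPM, log2 1.11, SE 0.32, edgeR adjusted p = 0.00388). Dnaja2, a cytosolic partner of Hspa8, and Dnajc13, an endosomal J protein, were higher by small amounts (log2 0.69 and 0.44, edgeR adjusted p = 0.0490 and 0.0461). Each of those 2 calls was lost in 9 of 20 alternative analyses, with adjusted p up to 0.108 for Dnaja2 and 0.0942 for Dnajc13.

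On the other side, Dnajb2, a J protein that binds ubiquitin, ran from 0.951 to 3.86 CPM (median 2.17) in non-Tg neurons and from 7.91 to 40.2 CPM (median 14.7) in non-Tg astrocytes, with no overlap (log2 -2.92, SE 0.47, edgeR adjusted p = 3.42e-06). Dnajc3, an ER protein that restrains the kinase PERK, ran from 39.8 to 73.3 CPM in non-Tg neurons and from 87.3 to 133 CPM in non-Tg astrocytes, and again no libraries overlapped (log2 -1.10, SE 0.23, edgeR adjusted p = 0.000182). Dnajc4 (log2 -1.88, SE 0.56, edgeR adjusted p = 0.00536) and Dnajc27, a Rab-like GTPase with a J domain (log2 -0.98, SE 0.27, edgeR adjusted p = 0.00352), were lower in neurons by overlapping libraries. Members without overlap between the non-Tg cell types numbered 9 of 60, against 31.3% of all genes tested.

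Several core chaperones did not pass the threshold between the non-Tg cell types. Hsp90ab1 stood at 209 ± 54 CPM (SD, n = 8) in neurons, with astrocyte libraries from 115 to 289 CPM. Hsp90b1 ran from 197 to 423 CPM in neurons and from 221 to 561 CPM in astrocytes, with broad overlap. Stip1 stood at 14.6 and 16.9 CPM, Dnaja1 at 39.2 and 30.8 CPM, Dnajc5, the synaptic vesicle J protein CSP alpha, at 40.4 and 43.3 CPM, and Dnajb6, known for holding back protein aggregation, at 12 and 13.4 CPM in neurons and astrocytes. With edgeR as set here, no gene of the Hsp90 system, no heat shock factor and not the 1 chaperonin subunit tested was called. Hsp90aa1 was called higher in neurons by DESeq2, with RLE size factors, with the filter at 1 CPM and without non-Tg neuron 2, neuron 8 or astrocyte 4. Hspa14 and Dnajc10 were likewise called higher under some alternatives, those first 3 among them. Hspa9, Dnajb9, Dnajb11 and Dnajc18 were called lower on the non-Tg libraries alone. With RLE size factors in place of TMM the split of members was 11 higher and 8 lower, and that of all genes went from 3097 higher and 3562 lower to 3538 and 3060, as the median of all genes moved from -0.11 to 0.08.

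**Figure D2:**
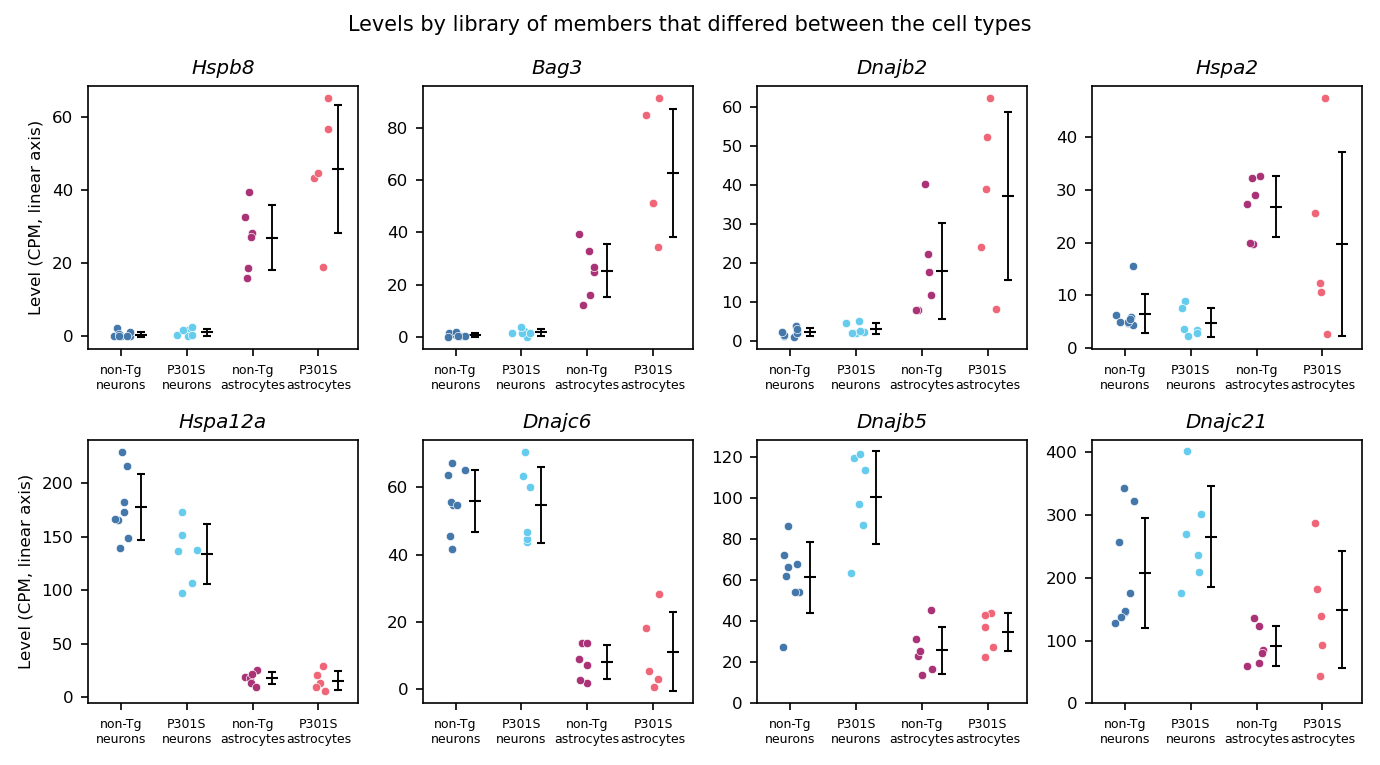
CPM on a linear axis for 8 members in each library of the 4 groups; points are libraries, and the dash with bars is mean ± SD. Hspb8, Bag3, Dnajb2 and Hspa2 are higher in the astrocyte groups and the other 4 in the neuron groups; P301S astrocyte libraries spread widely for Dnajb2, Hspa2 and Dnajc21.

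The same comparison among P301S libraries asked whether these differences were also found in mice with the transgene. Of the 60 members tested, 9 were higher and 16 lower in neurons (41.7%; edgeR). Of all genes 52.3% were called, 23.2% higher and 29% lower. The 2 comparisons share no library, though they share an estimate of spread, and 13 members were called in both, each in the same direction. These were 13 of 16 and 13 of 25 calls, or 21.7% of the 60 members tested. Of all genes 38.1% were called in both, 99.7% of them in the same direction. Hspb8 ran from 0 to 2.51 CPM (median 1.09) in P301S neurons and stood at 19, 43.3, 44.7, 56.8 and 65.3 CPM in the 5 P301S astrocyte libraries (log2 -5.43, SE 0.65, edgeR adjusted p = 2.26e-08). Bag3 ran from 0 to 3.99 CPM (median 1.83) in P301S neurons and stood at 51.2, 51.2, 34.5, 84.8 and 91.3 CPM in P301S astrocytes (log2 -5.08, SE 0.53, edgeR adjusted p = 1.24e-09). Neither gene overlapped between the cell types, as was so for 13 members, 8 higher and 5 lower, against 29.7% of all genes. Dnajb2 (log2 -3.65), Hspa12a (2.98), Dnajc6 (2.18), Hspa2 (-2.16) and Dnajb5 (1.40) also kept their side, with edgeR adjusted p from 5.51e-09 for Hspa12a to 0.000824 for Hspa2.

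Other members were called among the P301S but not the non-Tg libraries by the same edgeR fit. Of these, Hsp90aa1, Dnajc10, Hspa9 and Dnajb11 were also called among non-Tg libraries under some alternatives. Hsf1 was lower in neurons by 1.66 on the log2 scale (SE 0.44, edgeR adjusted p = 0.00201), and Hsp90aa1, the inducible cytosolic Hsp90, was higher by 1.95 (SE 0.43, edgeR adjusted p = 0.000287). Hspa9, the mitochondrial Hsp70, had a log2 difference of -1.07, Dnajb1 of -1.65, Hspa4l of 0.83 and Dnajb4 of 0.87, with edgeR adjusted p from 0.00785 for Hspa9 to 0.0418 for Dnajb4. Dnajc7, described further on, was lower (edgeR adjusted p = 0.0146). Dnajc10 (higher) and Bag1, Bag6, Dnajb11 and Dnajc24 (lower) were called too and are named after their values were seen. The non-Tg calls of Hspa4, Hspa5 and Dnajc21 were not called here. Hspa4 had a log2 difference of 0.11 among P301S libraries, Hspa5 of -0.79 and Dnajc21 of 0.70. A call in 1 genotype alone does not show a difference between genotypes, and the test of that difference, given further on, called no member.

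Fitted on the P301S libraries alone, with their own estimate of spread and set of genes tested, 15 of 57 members were called, against 4925 of 11966 genes. Of 17 alternatives, Dnajb11 was called in 4, Dnajb4 in 7 and Dnajb1 in 13. Bag1, Dnajc24, Bag6, Hspa4l, Hspb6, Dnajc4, Dnajc7, Dnajc10 and Dnajc13 were called in 14 to 16, and the other 13 members in all 17. Without P301S astrocyte library 1, Hspb6 had an adjusted p of 0.102.

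The comparison of genotypes in astrocytes asked whether tau transgenic astrocytes carry other chaperone levels than non-Tg ones. None of the 59 members tested was called by edgeR's quasi-likelihood test, against 0.544% of all genes (66 of 12130). At an unadjusted p under 0.05, 5 members were higher and 2 lower (11.9%), against 13.4% of all genes, 9.34% higher and 4.09% lower. DESeq2 called 2 of 82 members, Hsf1 and Bag3, both higher, against 548 of 36528 gene IDs in its fit. Members lay on both sides of 0, with 28 above and 31 below, a median log2 difference of -0.05 (all genes 0.13) and a range from -1.29 to 2.04. No member had groups that did not overlap, against 2.09% of all genes.

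**Figure D3:**
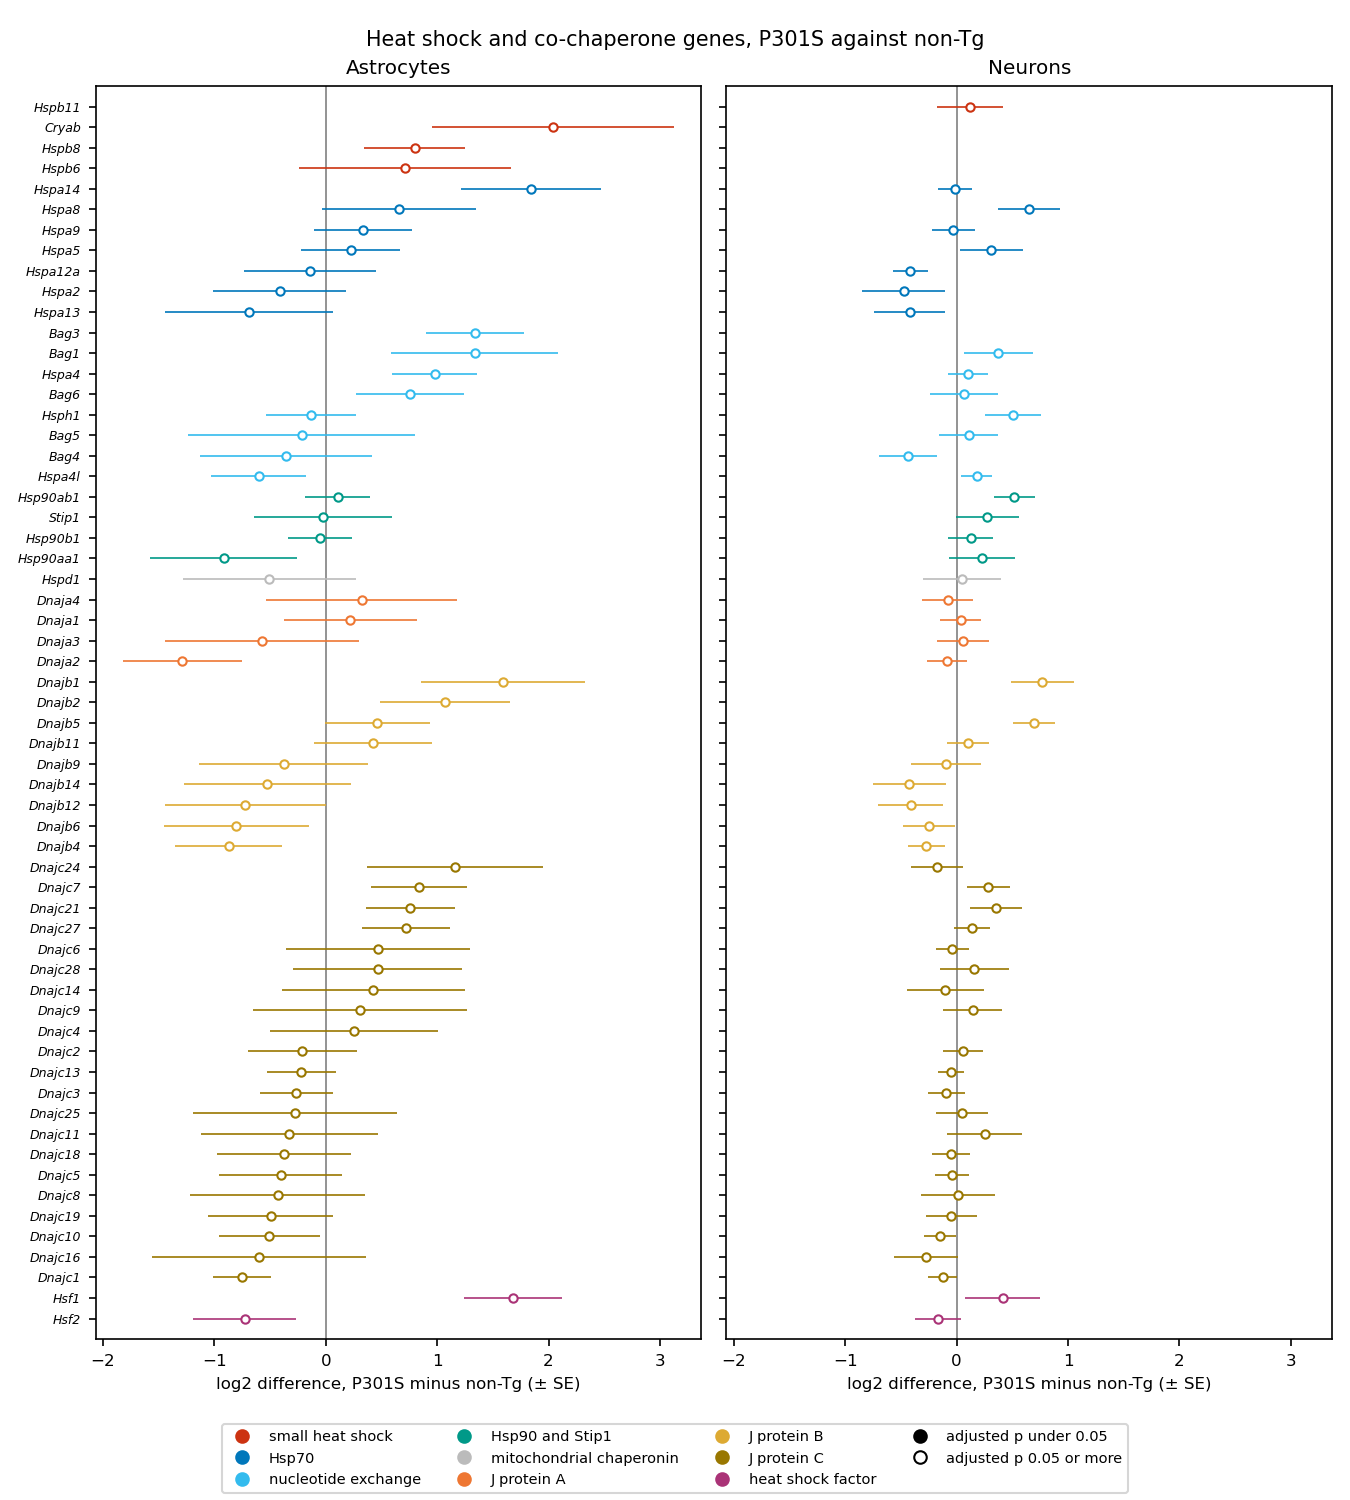
Log2 difference, P301S minus non-Tg, of each tested member in astrocytes (left) and neurons (right); bars are ± SE, colours give the role, and open points had an adjusted p of 0.05 or more. No point is filled; the astrocyte values run from -1.29 to 2.04 with wide bars, and the neuron values lie within 1 of 0.

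The heat shock factor Hsf1 (chr15:76477362-76501155) had the smallest p. Its 6 non-Tg astrocyte libraries ran from 27.1 to 55.5 CPM with a median of 39.1, and the 5 P301S libraries stood at 76.8, 90.8, 236, 28.7 and 208 CPM. All P301S libraries but 1 lay above every non-Tg library, and library 4 lay near the lowest of them. The log2 difference was 1.68 (SE 0.44) with an unadjusted p of 0.000984 and an edgeR adjusted p of 0.0836. Over the alternative analyses the adjusted p ran from 0.00546 to 0.997, and the value stayed above 0 in all 20. Hsf2, the other factor, had mean levels of 62.5 CPM (non-Tg) and 37.9 CPM (P301S).

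Bag3, the exchange factor that was read mainly in astrocytes, ran from 12.2 to 39.3 CPM in non-Tg astrocytes, and all 5 P301S libraries, from 34.5 to 91.3 CPM, lay above the non-Tg mean. The lowest P301S library lay below the highest non-Tg library. The log2 difference was 1.34 (SE 0.44, edgeR adjusted p = 0.173). Its partner Hspb8 ran from 16 to 39.6 CPM in non-Tg astrocytes, and 4 of the 5 P301S libraries lay above that range (log2 0.80, SE 0.45, edgeR adjusted p = 0.450). Cryab stood at 3.55, 3.17, 1.98, 22.6, 1.16 and 0.978 CPM in non-Tg astrocytes and at 2.88, 2.85, 0, 50.6 and 53.6 CPM in P301S astrocytes. Only P301S libraries 4 and 5 were above the highest non-Tg library, and its log2 difference of 2.04 (SE 1.08, edgeR adjusted p = 0.418) rested on them. It turned to -0.12 with genes detected as a covariate and to -0.78 with a sex marker covariate. The 3 small heat shock genes tested, Hspb6 included, all had values above 0, from 0.71 to 2.04, and none was called.

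The values of Hspa14 and Hspa4 depended on P301S library 4. Hspa14, an Hsp70 protein of the ribosome, ran from 7.6 to 26.3 CPM in non-Tg astrocytes and stood at 49.5, 16.1, 17.8, 151 and 17.7 CPM in P301S astrocytes (log2 1.84, SE 0.62, edgeR adjusted p = 0.186). Without P301S astrocyte library 4 its log2 difference was 0.79. Hspa4 ran from 47.7 to 111 CPM in non-Tg astrocytes and stood at 72.5, 131, 97, 282 and 78.9 CPM in P301S astrocytes (log2 0.98, SE 0.38, edgeR adjusted p = 0.261), and without library 4 the difference was 0.47. P301S libraries 1, 3 and 5 lay within the non-Tg range.

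Of 34 J proteins tested in astrocytes, 15 had values above 0 and 19 below, with a median of -0.24. Dnajc1, an ER membrane protein, ran from 198 to 266 CPM (median 242) in non-Tg astrocytes and stood at 200, 181, 85.4, 124 and 113 CPM in P301S astrocytes. All but library 1 lay below the non-Tg range (log2 -0.75, SE 0.26, edgeR adjusted p = 0.190). Dnaja2 ran from 20.4 to 45.1 CPM in non-Tg astrocytes and stood at 27.6, 6.96, 10.9, 8.21 and 14 CPM in P301S astrocytes, again with only library 1 inside the non-Tg range (log2 -1.29, SE 0.53, edgeR adjusted p = 0.291). Dnajb1, the inducible Hsp40 and a classical Hsf1 target, ran from 3.87 to 23.5 CPM in non-Tg astrocytes and stood at 2.3, 62.3, 74.4, 15 and 20 CPM in P301S astrocytes. Its 2 high P301S libraries were 2 and 3 (log2 1.59, SE 0.74, edgeR adjusted p = 0.351). Dnajc7, which binds both Hsp70 and Hsp90, ran from 35.5 to 79.9 CPM in non-Tg astrocytes and stood at 99.3, 123, 21.9, 150 and 59 CPM in P301S astrocytes (log2 0.84, SE 0.43, edgeR adjusted p = 0.403). Dnajc7 overlaps the oligodendrocyte gene Cnp on the opposite strand, which stood at 19 ± 6.65 and 25.2 ± 17.2 CPM in non-Tg and P301S astrocytes. Whether the counting used strand is not given in the sources used here.

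**Figure D4:**
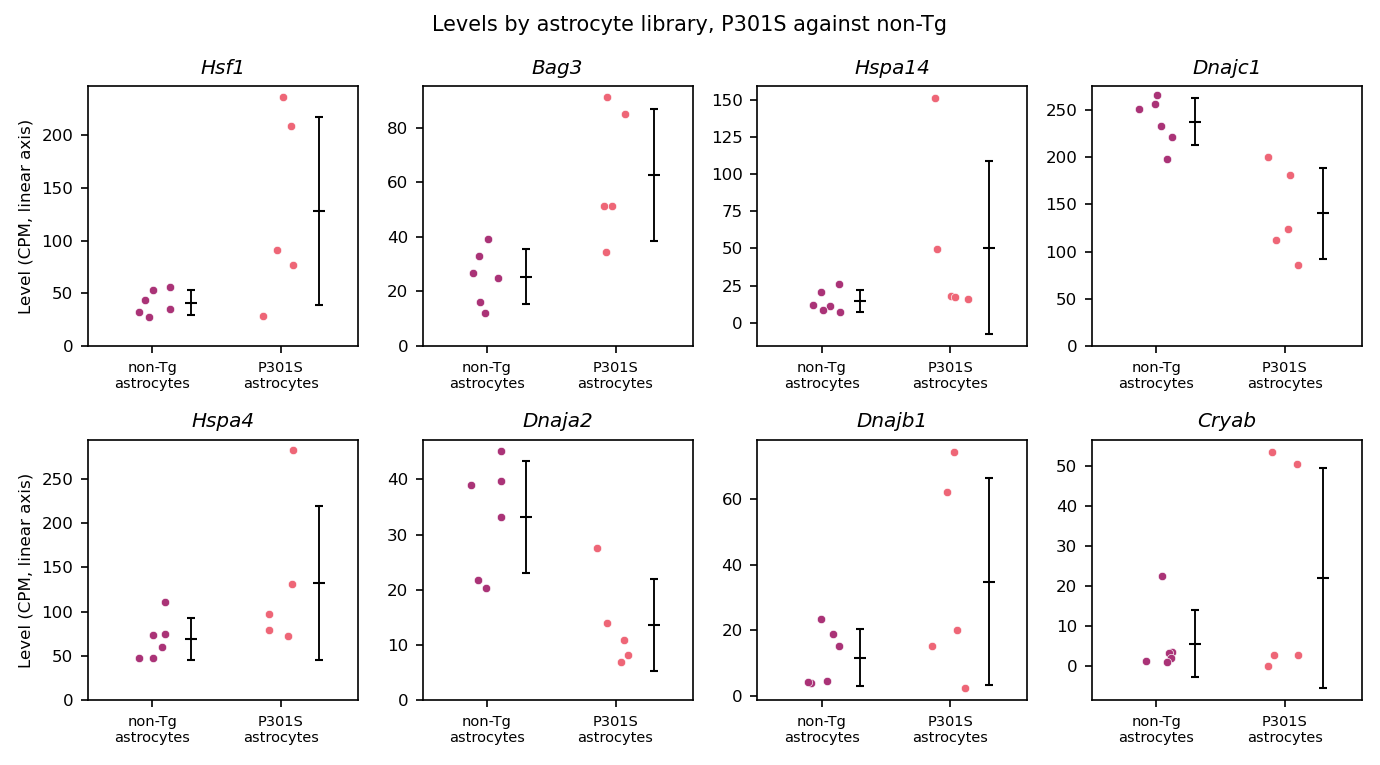
CPM on a linear axis for 8 members in the 6 non-Tg and 5 P301S astrocyte libraries; points are libraries, and the dash with bars is mean ± SD. The groups overlap for each gene; the high P301S values are libraries 3 and 5 for Hsf1, 4 for Hspa14 and Hspa4, 2 and 3 for Dnajb1, and 4 and 5 for Cryab.

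The high P301S libraries were thus not the same from gene to gene. Of the 59 members tested in astrocytes, 38 had their highest and 47 their lowest value in a P301S library, although these were 5 of the 11 libraries. For all genes tested the shares were 67.8% and 72.9%, close to the 64.4% and 79.7% of the members. The SD of log2(CPM + 1) was larger in P301S than in non-Tg astrocytes for 53 of the 59 members (89.8%) and for 86.5% of all genes. The median SE of a member's log2 difference was 0.60 in astrocytes and 0.23 in neurons (0.67 and 0.23 for all genes). The 95% interval of the astrocyte difference was -0.62 to 0.51 for Hsp90b1 and -0.47 to 0.68 for Hsp90ab1, but -0.70 to 2.02 for Hspa8 and -1.23 to 1.19 for Stip1.

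In astrocytes no library measure differed between genotypes at an adjusted p under 0.05, and those with the smallest p are given here beside the members. The summed level of the oligodendrocyte markers was 596 ± 242 CPM (380 to 1007) in P301S and 347 ± 115 CPM (195 to 507) in non-Tg astrocytes (exact permutation test, 2-sided, p = 0.0303, adjusted p = 0.161), with 0 of the 8 tested markers called. Precursor markers summed to 229 ± 134 against 93.9 ± 27.6 CPM (exact permutation p = 0.0519, adjusted p = 0.190), and mitochondrial genes took 7.72% ± 2.86 of counts in P301S and 4.04% ± 1.52 in non-Tg libraries (p = 0.0303 by exact permutation, adjusted p = 0.161). Their part in the astrocyte values of the members was not tested beyond the covariate fits. With genes detected as a covariate the log2 difference was 1.58 for Hsf1 and 1.39 for Bag3, with an adjusted p of 0.997 for both, and calls among all genes went from 66 to 0. With the oligodendrocyte and microglia markers as covariates it was 1.02 for Hsf1 (edgeR adjusted p = 0.764) and 1.495 for Bag3 (edgeR adjusted p = 0.650), and 7 of all genes were called. A sex marker covariate gave a log2 difference of 1.37 for Hsf1 (edgeR adjusted p = 0.628) and 0.826 for Bag3 (edgeR adjusted p = 0.776). There 15 of all genes were called.

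In neurons none of the 54 members tested was called by edgeR, against 0.00913% of all genes (1 of 10951). At an unadjusted p under 0.05, 4 members were higher and 1 lower (9.26%), against 7.73% of all genes, 3.04% higher and 4.68% lower. DESeq2 called no member, against 35 of 36528 gene IDs in its fit. No member had groups that did not overlap, against 0.228% of all genes. The median log2 difference of the members was 0.04 (all genes -0.02), and no value was larger than 0.77 or lower than -0.48. The median absolute log2 difference was 0.15 for members and 0.17 for all genes in neurons, and 0.51 and 0.57 in astrocytes, where the SE was larger.

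Dnajb5, the J protein that was higher in neurons than in astrocytes, had the smallest p. It stood between 27.5 and 86.2 CPM with a median of 64.2 in non-Tg neurons and between 63.6 and 121 CPM with a median of 105 in P301S neurons. All 6 P301S libraries lay above the non-Tg mean of 61.3 CPM, and 5 of them lay above the highest non-Tg library. The log2 difference was 0.70 (SE 0.19) with an unadjusted p of 0.00148 and an edgeR adjusted p of 0.249. Without non-Tg libraries 5 and 8, whose sample identifiers lie in another number range, the adjusted p was 0.0434, and over the 23 alternatives it ran from 0.0434 to 1.

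Hsp90ab1 (chr17:45567778-45573261) ran from 127 to 282 CPM (median 200) in non-Tg neurons and from 210 to 390 CPM (median 304) in P301S neurons. P301S libraries 3, 4 and 5 lay above the non-Tg range (log2 0.52, SE 0.18, edgeR adjusted p = 0.477). The 4 genes of the Hsp90 system all had values above 0, from 0.13 to 0.52, and none was called. Dnajb1 ran from 4.21 to 9.07 CPM in non-Tg neurons and stood at 3.94, 14.6, 12.6, 10.2, 20 and 10.6 CPM in P301S neurons, so that all but library 1 lay above the non-Tg range (log2 0.77, SE 0.28, edgeR adjusted p = 0.504). Hspa8 ran from 2.7 to 17.3 CPM (median 11) in non-Tg neurons and from 11.5 to 25.1 CPM (median 17.8) in P301S neurons, with overlap (log2 0.65, SE 0.28, edgeR adjusted p = 0.607). Hsph1, the Hsp110 exchange factor of Hspa8, ran from 63.5 to 178 CPM (median 88.5) in non-Tg neurons and from 75.9 to 239 CPM (median 145) in P301S neurons (log2 0.50, SE 0.25, edgeR adjusted p = 0.669).

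On the lower side, Hspa12a ran from 140 to 229 CPM (median 170) in non-Tg neurons and from 97.4 to 173 CPM (median 137) in P301S neurons. P301S libraries 1, 3, 4 and 6 lay below the non-Tg range (log2 -0.42, SE 0.16, edgeR adjusted p = 0.530). Bag4 stood at 25 ± 9.19 and 18.3 ± 4.42 CPM (log2 -0.44, SE 0.26, edgeR adjusted p = 0.723) and Dnajb4 at 112 ± 26.5 and 93.6 ± 9.82 CPM (log2 -0.27, SE 0.16, edgeR adjusted p = 0.729). Of the 32 J proteins tested in neurons, 14 had values above 0, and of the 7 exchange factors 6 did. The 95% interval of the neuron difference was -0.27 to 0.53 for Hsp90b1, -0.41 to 0.35 for Hspa9 and -0.34 to 0.25 for Dnajc5. These 3 intervals stay within 0.53 of 0 on the log2 scale, but they rest on a normal distribution and are somewhat too narrow.

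**Figure D5:**
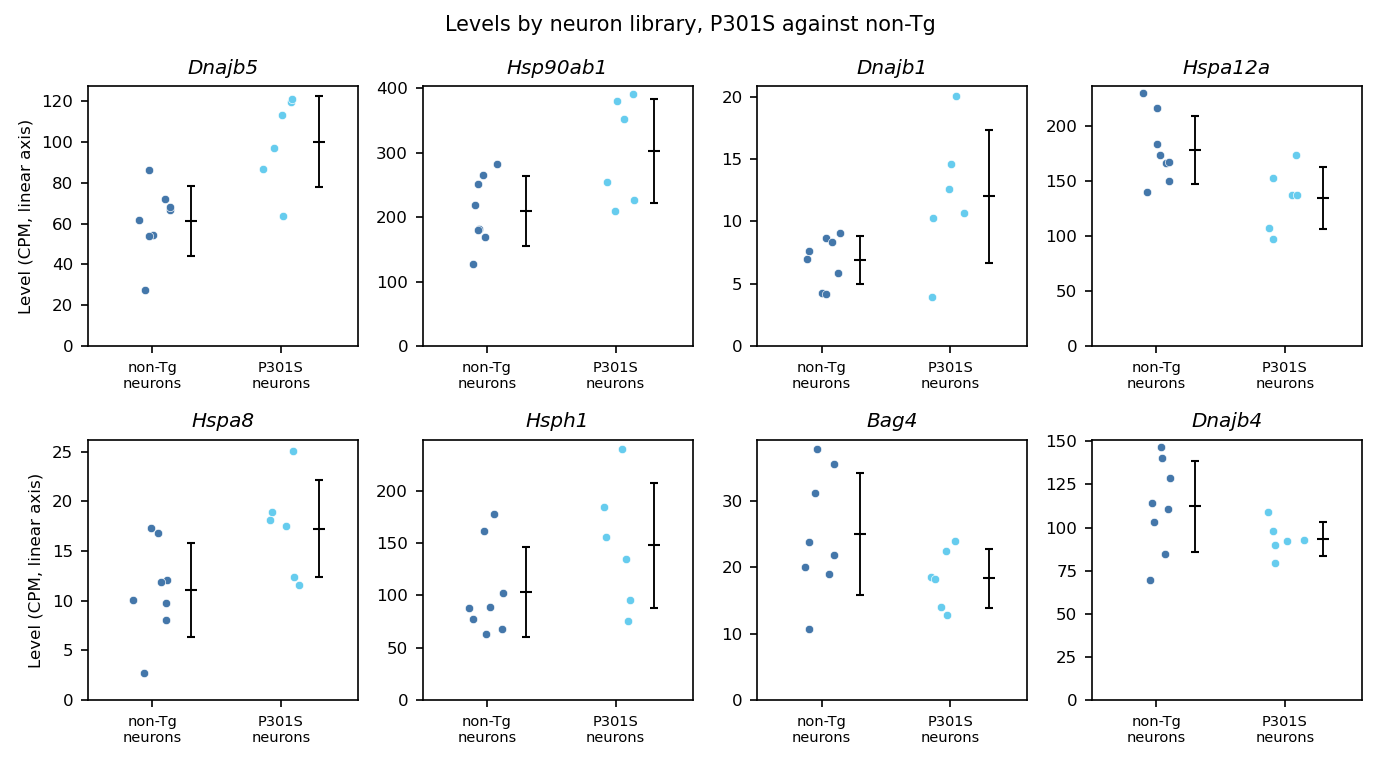
CPM on a linear axis for 8 members in the 8 non-Tg and 6 P301S neuron libraries; points are libraries, and the dash with bars is mean ± SD. Dnajb5, Hsp90ab1, Dnajb1, Hspa8 and Hsph1 have higher P301S means and Hspa12a, Bag4 and Dnajb4 lower ones, with overlapping libraries for each.

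In neurons the summed level of immediate early genes, which also answer to dissociation, was 90.7 ± 25.8 CPM (49.2 to 117) in P301S and 63.6 ± 15.8 CPM (43.3 to 86.9) in non-Tg libraries (exact permutation test, 2-sided, p = 0.0366, adjusted p = 0.161). Endothelial markers summed to 10.9 ± 3.32 against 15.8 ± 3.31 CPM (exact permutation p = 0.0207, adjusted p = 0.161), and mitochondrial genes took 1.52% ± 0.468 against 1.11% ± 0.349 of counts (exact permutation p = 0.0939, adjusted p = 0.218). Their part in the neuron values was not tested.

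The test of the difference itself was the genotype effect in astrocytes minus that in neurons, in a fit of all 25 libraries. It called none of the 60 members tested by edgeR, against 0.394% of all genes (56 of 14197). DESeq2 called no member, against 469 of 36528 gene IDs in its fit. At an unadjusted p under 0.05 there were 3 higher and 3 lower members (10%), against 14.8% of all genes, 7.83% higher and 7% lower. The smallest adjusted p was that of Hspa14 (log2 1.85, SE 0.61, edgeR adjusted p = 0.129), and without P301S astrocyte library 4 its value was 0.84. Dnaja2 followed (log2 -1.18, SE 0.43, edgeR adjusted p = 0.173) and then Dnajc1 (log2 -0.62, SE 0.26, edgeR adjusted p = 0.236). For Dnaja2 the neuron levels of the genotypes were close, at 56.1 ± 15.6 and 53.4 ± 8.03 CPM, and the astrocyte levels were 33.2 ± 10.1 and 13.5 ± 8.33 CPM. Without P301S astrocyte library 1 its adjusted p was 0.0329, and over the 31 alternatives it ran from 0.0329 to 0.280.

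Genes of the wider proteostasis network were counted in the same fits, from 7 lists. No gene of any list was called by edgeR for genotype in astrocytes or in neurons, against 0.544% and 0.00913% of all genes. At such shares, no call in lists of this size is not a result about these genes. In astrocytes these were 12 tested Hsp90 co-chaperones, 8 subunits of the cytosolic chaperonin, 2 prefoldin subunits, 10 ER chaperones and folding enzymes, 8 genes of the unfolded protein and integrated stress responses, 9 of mitochondrial protein quality and 9 other heat shock factor genes and partners. Atf5, a transcription factor of the mitochondrial and integrated stress responses, had a log2 difference of 3.83 (SE 1.01, edgeR adjusted p = 0.0881). It ran from 0.95 to 5.87 CPM in non-Tg astrocytes and from 1.26 to 173 CPM in P301S astrocytes. The P301S mean of 38.8 ± 75.4 CPM (SD, n = 5) rested mostly on the 1 library at 173 CPM. Hyou1, the large Hsp70 relative of the ER, stood at 17.7 ± 13.6 and 5.54 ± 2.52 CPM (edgeR adjusted p = 0.308), and Clpx, a mitochondrial unfoldase, at 24.4 ± 8.26 and 49.1 ± 23.6 CPM (edgeR adjusted p = 0.319). In neurons the ER chaperone Calr stood at 98.7 and 128 CPM in non-Tg and P301S libraries (edgeR adjusted p = 0.698).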

How the data were processed

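RNA-seq of sorted neurons and astrocytes was analysed from 25 per-library tables. Per the file headers, the deposited counts are reads aligned uniquely to a gene model, and the second deposited column is the authors' size-factor-adjusted RPKM. Per the submitters' processing notes, GSNAP and GRCm38 were used; no version, and no use of strand in counting, is given in the sources used here. Gene IDs were matched to RefSeq symbols and positions (GRCm38.p6); 5479 of 36528 IDs, with 3.30% of counts, had no symbol and stayed in every test. The labels carry no replicate numbers, so libraries were numbered within groups as names only.

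Counts were tested with edgeR 4.0.16 in R 4.3.3 (TMM, filterByExpr, robust quasi-likelihood F test), with genotype within each cell type and the other comparisons in 1 fit with a mean for each of the 4 groups. P-values were adjusted by Benjamini-Hochberg over all genes tested, and a gene was called under 0.05. The SE is the absolute log2 difference over the square root of F. The 95% intervals take that SE times the multiplier of a normal distribution. They leave out the limited degrees of freedom of the F test and so are too narrow. Exact permutation tests, 2-sided, were used for library measures. The scripts were tested on simulated data. Alternatives were RLE size factors, DESeq2 1.42.0, no filter, a filter at 1 CPM, other sets of libraries, 3 kinds of covariate and leaving out each library. Floors and detection limits cover counting error only, since the reads carry no molecular identifiers.

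The rule for members uses symbols alone. That rule, the role groups, the lists and the rule for named genes were set with earlier results of these data known. Named were 26 central members in any case, the 8 members with the smallest p per genotype comparison, 3 for the difference, and up to 8 per direction of those called between non-Tg cell types. From the wider lists, only some of the genes the rule takes are printed. The search for shared 50-base stretches used the longest coding transcript per gene in GENCODE M21.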

Additional observations from a re-analysis of the deposited data

Results flagged for a closer look

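Among 136 groups of 5 to 8 libraries (34 named members in 4 groups), 14 held a library that stood apart from the rest of its group by Dixon's test. For normally distributed values chance gives about 1 in 20. The values here are CPM on a linear scale, and the share over all genes is not given. The 14 are therefore not read as an excess particular to these members. In P301S astrocytes, library 4 was high for Hspa14 (151 CPM, others 16.1 to 49.5) and Hspa4 (282 CPM, others 72.5 to 131) and low for Dnajb6 (2.74 CPM, others 7.99 to 10.1). P301S astrocyte library 1 was high for Hspa4l (90.1 CPM, others 28 to 34) and library 3 for Stip1 (41.3 CPM, others 6.66 to 13.8).

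In non-Tg astrocytes, library 4 was high for Cryab (22.6 CPM, others 0.978 to 3.55) and Hsf2 (125 CPM, others 40.3 to 60.0), library 5 for Dnajc5 (90.0 CPM, others 25.6 to 46.6), and library 1 was low for Dnajb4 (51.6 CPM, others 86 to 105). In non-Tg neurons, library 5 was high for Dnaja2 (90.1 CPM, others 42 to 61.8), Hspa2 (15.7 CPM, others 4.27 to 6.18) and Hspd1 (11.9 CPM, others 2.13 to 6.06); it is 1 of the 2 libraries whose identifiers lie in another number range. In P301S neurons, library 1 was low for Dnaja2 (38.2 CPM, others 52.8 to 60.2) and library 6 was high for Dnajc3 (75.0 CPM, others 43.1 to 52.9).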

How the results depend on the processing

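No paired analysis was possible because the labels carry no replicate numbers and tie no neuron library to an astrocyte library. For genotype in astrocytes, no member was called with edgeR. Without a filter 1 of 76 members was called, against 561 of 27457 genes. DESeq2 called 2 of 82 members, against 548 of 36528 gene IDs in its fit. With all 25 libraries in 1 fit, 6 of 60 members were called, against 1682 of 14197 genes. Of these, Bag3, Hsf1, Hspa14 and Hspa4 were higher and Dnaja2 and Dnajc1 lower. Without each library in turn, 0 to 1 members were called (Hsf1 without P301S astrocyte 4). All genes called, 66, became 0 with genes detected as a covariate, 15 with sex markers and 7 with oligodendrocyte and microglia markers. They became 42 without P301S astrocytes 3 and 4, and 27 to 136 without each library. In neurons, 1 of 52 members (Dnajb5) was called without the 2 non-Tg libraries of another identifier range, against 38 of 10566 genes. Members called stayed at 0 without each library. All genes called there, 1, became 17 without a filter, 10 at 1 CPM, 35 by DESeq2, 7 with genes detected, 2 with oligodendrocyte and microglia markers, 38 without those 2 libraries and 0 to 23 without each library. For the difference between cell types, members called ran from 0 to 1 without each library. Without P301S astrocyte 1, 1 of 61 members (Dnaja2) was called, against 522 of 14346 genes. All genes called, 56, became 469 by DESeq2, 12 without the 2 libraries, 266 without P301S astrocytes 3 and 4 and 9 to 522 without each library. The 25 members called between P301S cell types became 15 of 57 tested on the P301S libraries alone, and the 7420 genes became 4925 of 11966. Without each library, 23 to 28 members and 6840 to 7781 genes were called. The 16 between non-Tg cell types ran from 13 to 22 over all alternatives. Signs turned for Cryab in astrocytes (-0.12 with genes detected, -0.78 with sex markers) and for Hspa4 between P301S cell types (-0.048 without P301S astrocyte 1, -0.01 without P301S astrocyte 5; -0.048 to 0.62 without each library). Fewer libraries or another set of genes tested are part of the construction of some of these; otherwise the cause was not tested. With a median SE of 0.60 for the members, small genotype differences in astrocytes could not be resolved.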
